A study of Mus musculus with 6 samples.

Results

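The genes of the major histocompatibility complex (MHC) and of antigen presentation were examined in mouse liver 24 hours after a single toxic injury. Members were all rows of the deposited expression table with a name starting with H2-, which were 43, together with the 7 genes B2m, Tap1, Tap2, Tapbp, Nlrc5, Cd74 and Ciita, so 50 of 24346 genes in all. Whole livers came from 6 male mice of 8 weeks, labelled as the C57/BL6 strain, that had received carbon tetrachloride (CCl4), a hepatotoxin, at 0.6 μl per g of body weight. The 3 controls were med23 f/f mice, which carry floxed alleles of Med23, a subunit of the Mediator complex that links transcription factors to RNA polymerase. The 3 other mice, labelled med23 Δli, carry the floxed alleles and a Cre driven by the Albumin promoter, so the deletion is aimed at hepatocytes and the other liver cells keep the gene. All 6 mice received CCl4, and each library is 1 mouse.

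Class I molecules consist of a heavy chain and β2-microglobulin (B2m) and show peptides made in the cytosol to CD8+ T cells and natural killer cells. Their peptides are cut by the proteasome, carried into the endoplasmic reticulum by the transporter formed from Tap1 and Tap2, and loaded with the help of tapasin (Tapbp). Class Ia heavy chains are the classical, highly polymorphic ones, and class Ib heavy chains are less variable relatives with narrower tasks. Class II molecules are pairs of an α and a β chain, are made mainly by macrophages, dendritic cells and B cells, and are held by the invariant chain (Cd74) until H2-DM exchanges its remnant for a peptide. In whole liver, fewer cells of a type and less RNA per cell cannot be told apart.

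Many members are close copies of one another. Coding sequences from the GENCODE M21 annotation of the mm10 build shared 97.0% of aligned bases between H2-Q5 and H2-Q7, 96.9% between H2-T10 and H2-T22, 95.9% between H2-DMb1 and H2-DMb2, and 92.0% between H2-K1 and H2-D1. In all, 12 pairs reached 90%. Of the 43 H2- genes, 39 had a sequence to compare, and H2-L, H2-Q8, H2-Q9 and H2-T9 had none under those names. Reads shared by such copies can be divided among them in ways that differ between libraries, so values of single copies are uncertain, and sums over the closest copies are given as well.

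The likeness extends into the promoters, and 70 bases ahead of 5 class I heavy chain genes are shown. These genes were chosen with the signs of their group differences known, H2-D1 alone being above 0. None of the 5 passed the test described below, and a link between the letters and the levels was not tested. The stretches are RefSeq sequences of GRCm38.p6, the build also called mm10, written 5′ to 3′ on the strand of the gene. Capitals mark GGGATTCCC, letters of the NF-κB type site in the class I enhancer, and TTTCACTT, letters of the interferon response element that follows it.
H2-K1, chr17:34000407-34000476, minus strand: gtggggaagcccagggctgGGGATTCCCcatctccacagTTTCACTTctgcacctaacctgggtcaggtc
H2-D1, chr17:35262905-35262974, plus strand: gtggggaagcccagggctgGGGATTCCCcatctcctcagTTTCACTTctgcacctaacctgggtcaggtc
H2-Q6, chr17:35424659-35424728, plus strand: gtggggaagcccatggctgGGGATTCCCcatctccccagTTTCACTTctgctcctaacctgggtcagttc
H2-Q7, chr17:35439003-35439072, plus strand: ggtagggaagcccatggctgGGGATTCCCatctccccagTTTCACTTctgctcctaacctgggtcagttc
H2-Q10, chr17:35469895-35469964, plus strand: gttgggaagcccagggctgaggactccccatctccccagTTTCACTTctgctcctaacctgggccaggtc
The H2-K1 and H2-D1 stretches differed at 1 of 70 positions, and those of H2-K1 and H2-Q10 at 6 of 70. Searched on both strands, the letters GGGATTCCC were found in the 250 bases before the start of 4 of the 34 members that have a RefSeq promoter, namely H2-K1, H2-D1, H2-Q6 and H2-Q7, and in 0.301% of all 32851 promoter windows. They were not found in the H2-Q10 window. The letters TTTCACTT were found for 9 of the 34 members, all of them class I heavy chain genes and H2-Q10, H2-Q4, H2-T22 and H2-M3 among them, and in 1.361% of all windows. CTGATTGG, the Y box of class II promoters, was found for 17 of the 34 members and in 3.829% of all windows. H2-Aa and H2-Eb1 were among these 17 members, as were H2-D1, H2-T23 and Tap1. A match gives the letters and not binding.

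Libraries were compared before the members were read. Med23 measured 3.42, 2.97 and 4.14 FPKM in med23 f/f replicates 1, 2 and 3 and 3.40, 3.40 and 2.91 FPKM in the replicates labelled med23 Δli, so whole-gene values did not separate the labels (log2 fold change -0.11, limma adjusted p = 0.685). FPKM, fragments per kilobase of transcript scaled to the number of mapped fragments, is corrected for length, so levels of different genes can be set side by side. Between 7629 and 9342 genes were at 0 in a library, and no read counts accompany the values. The fat genes Adipoq and Ucp1 reached 5.65 and 2.29 FPKM in med23 Δli replicate 2 and at most 0.0907 FPKM in any other library. The adult β-globin gene Hbb-bs, of the C57BL haplotype, stood at 43.8 and 122 FPKM in med23 f/f replicates 1 and 2 and at 12.1 FPKM or less elsewhere, while Hbb-b1, of another haplotype, stood at 47.7 FPKM or more in the other 4 libraries and at 0.0659 FPKM or less in those 2. Both gene sets were picked after their values were seen, and their part in the MHC values was not tested. MHC genes vary between mouse strains, the values refer to the gene models of a C57BL/6 reference, and whether the 6 mice carried the same H2 haplotype was not tested, which limits the reading of every H2- value, H2-L included.

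Of the 50 members, 31 averaged 0.5 FPKM or more across libraries and were tested, and 7 were at 0 in every library. limma was fitted to log2(FPKM + 0.1) of all 11956 genes that passed this filter, with Benjamini-Hochberg adjustment over all of them, and a gene was called when the log2 fold change was beyond 1 in either direction at an adjusted p under 0.05. H2-Q1 was the 1 member called up, or 3.23% of those tested, against 4.45% of all genes tested. Its control mean of 0.412 FPKM was under the filter, so it was tested only because of its higher med23 Δli values. No member was called down, against 3.45% of all genes. At an adjusted p under 0.05 and any size, 1 member was higher in med23 Δli livers (11.6% of all genes were) and 3 members were lower, which is 9.68% of the tested members beside 9.48% of all genes. These shares were near or below those of all genes tested. At an unadjusted p under 0.05, 2 members were higher, or 6.45% beside 20.5% of all genes, and 4 were lower, or 12.9% beside 17.1%. The median log2 fold change over the tested members was -0.33, with 19 below 0 and 12 above, beside a median of 0.02 over all genes tested, of which 47.8% were below 0. The member median includes med23 f/f replicate 2, which held the highest value of 17 of the 31 members, so it does not measure a shift shared by all livers. Without that library the median of the 6 tested class II genes went from -0.45 to -0.07.

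**Figure D1:**
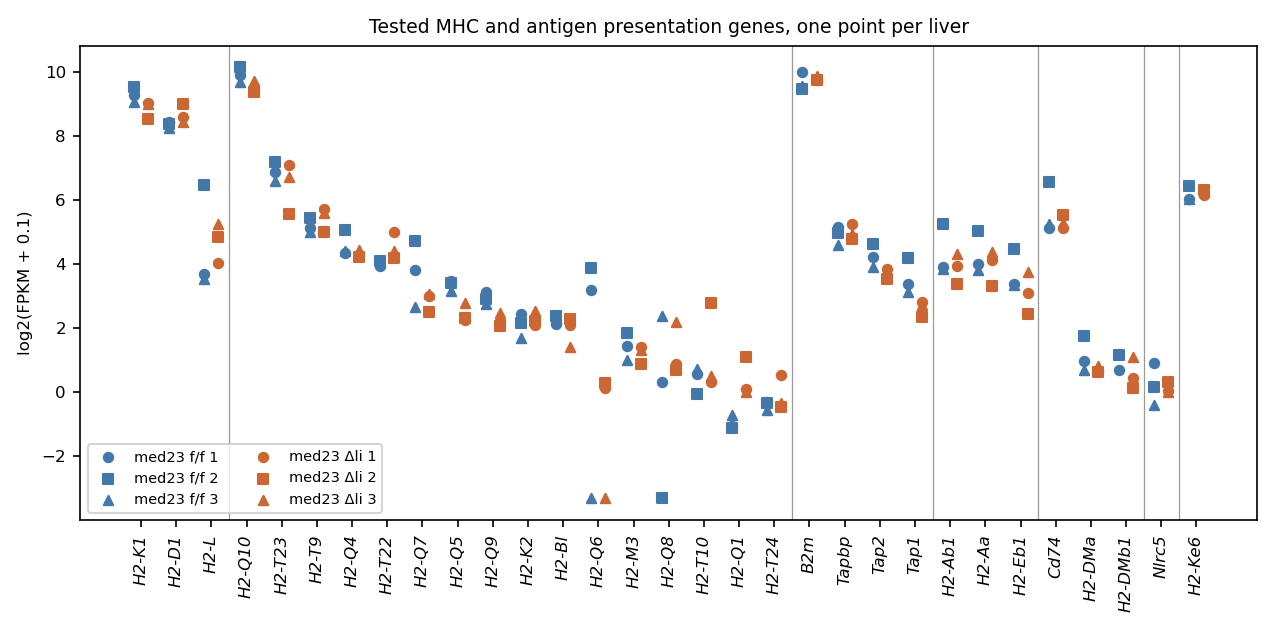
Levels of the 31 tested members, as log2(FPKM + 0.1), with 1 point per liver (blue, med23 f/f; orange, labelled med23 Δli; circle, square and triangle, replicates 1, 2 and 3). Grey lines part class Ia, class Ib, class I assembly genes, class II chains, class II accessory genes, the regulator Nlrc5 and H2-Ke6; H2-Q10, H2-K1 and B2m stand highest, and H2-Q6 and H2-Q8 drop to near 0 in single libraries.

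Med23 f/f replicate 2 stood apart for these genes. It held the highest value of 17 of the 31 tested members, or 54.8%, while it was the highest library for 22.4% of all genes tested. Class II stood out most, with 5 of the 6 tested genes highest there. The 4 members that passed the test at any size, and the class II genes, are therefore also given without it.

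The classical class Ia heavy chains H2-K1 and H2-D1 lay on opposite sides of the controls, and neither passed the test. H2-K1 (chr17:33996017-34000347, minus strand) measured 621, 735 and 540 FPKM in the controls and 529, 373 and 510 FPKM in the med23 Δli livers. Every med23 Δli value lay below every control, and replicate 2 was the lowest of all. The means were 632 ± 98.1 (SD, n = 3) and 471 ± 85.5 FPKM, a log2 fold change of -0.43 ± 0.19 (SE) with an adjusted p of 0.136. H2-D1 (chr17:35262730-35267499, plus strand) measured 345, 335 and 305 FPKM in the controls and 392, 516 and 350 FPKM in the med23 Δli livers. Here every med23 Δli value lay above every control, and the same replicate 2 was the highest. The means were 328 ± 21.0 and 419 ± 86.7 FPKM, a log2 fold change of 0.34 ± 0.17 with an adjusted p of 0.190. Both were smaller when med23 Δli replicate 2 was left out, with H2-K1 at -0.27 (adjusted p = 0.393) and H2-D1 at 0.18 (adjusted p = 0.528).

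Within a library, the H2-K1 level divided by that of H2-D1 was 1.80, 2.20 and 1.77 in the controls and 1.35, 0.722 and 1.46 in the med23 Δli livers. H2-D1 was thus the more abundant of the pair in 1 liver only, med23 Δli replicate 2. The 2 groups did not overlap, as the separation of both genes fixes, so a test of the ratio would add nothing and none is given. The ratio was chosen after the values were seen. H2-L, a gene of the D region described from strains other than C57BL/6, measured 12.8, 87.9 and 11.5 FPKM in the controls and 16.2, 29.0 and 37.8 FPKM in the med23 Δli livers. Med23 f/f replicate 2 was again far above the rest and the groups overlapped (adjusted p = 0.901). With H2-L added to H2-D1, the ratio was 1.74, 1.74 and 1.71 in the controls and 1.30, 0.684 and 1.32 in the med23 Δli livers. The spread among controls fell from 0.237 to 0.0163 (SD) with that addition, while that among med23 Δli livers went from 0.399 to 0.361, and the groups still did not overlap. The sum of H2-D1 and H2-L itself was 358, 423 and 316 FPKM in the controls and 408, 545 and 387 FPKM in the med23 Δli livers. Here the groups overlapped, since med23 f/f replicate 2 lay above replicates 1 and 3 of med23 Δli (log2 fold change 0.28 ± 0.18, adjusted p = 0.290). The log2 fold change of this sum was 0.13 without med23 Δli replicate 2 and 0.39 without med23 f/f replicate 2. Summed over the 3 class Ia genes, the level was 998 ± 152 FPKM in controls and 918 ± 19.8 FPKM in med23 Δli livers, and the control mean was 917 FPKM without med23 f/f replicate 2.

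**Figure D2:**
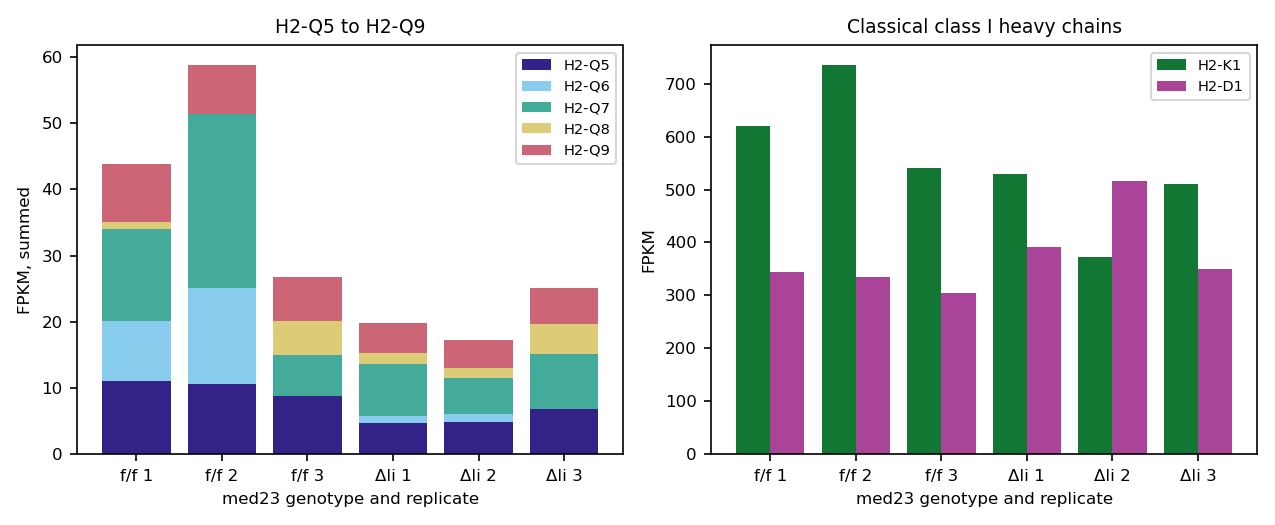
FPKM by library, with bars from 0. Left, H2-Q5 to H2-Q9 stacked, from 26.7 to 58.8 FPKM in the med23 f/f livers and from 17.2 to 25.1 FPKM in those labelled med23 Δli; right, H2-K1 and H2-D1, where H2-K1 is the taller bar in every library except med23 Δli replicate 2.

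Class Ib held 29 members, of which 16 were tested and 7, H2-M10.1 to H2-M10.6 and H2-M11, were at 0 in every library. H2-Q10, a secreted heavy chain made chiefly by the liver, was the most abundant of all class I heavy chains. At chr17:35470089-35474563 on the plus strand, it measured 968, 1145 and 822 FPKM in the controls and 708, 665 and 846 FPKM in the med23 Δli livers. Med23 Δli replicate 3 lay just above the lowest control, so the groups overlapped. The means were 978 ± 162 and 740 ± 94.4 FPKM, a log2 fold change of -0.40 ± 0.17 with an adjusted p of 0.134. It made up between 36.8% and 44.1% of the summed class I heavy chain level of a library.

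H2-T23, the Qa-1 heavy chain that shows leader peptides to natural killer cell receptors, measured 118, 147 and 95.9 FPKM in the controls and 137, 47.3 and 106 FPKM in the med23 Δli livers. The low value of med23 Δli replicate 2 set the mean apart, and the groups overlapped (log2 fold change -0.42 ± 0.37, adjusted p = 0.429). Without that library the log2 fold change was 0.02. H2-T9 measured 34.5, 43.0 and 31.7 FPKM in the controls and 53.3, 32.2 and 48.0 FPKM in the med23 Δli livers. Replicates 1 and 3 of med23 Δli were the highest and replicate 2 lay within the controls (log2 fold change 0.27 ± 0.21, adjusted p = 0.389). The log2 fold change was 0.12 without med23 Δli replicate 1 and 0.48 without replicate 2, with adjusted p of 0.759 and 0.148.

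H2-T22 and H2-T10 encode heavy chains that bind no peptide and are ligands of γδ T cells. H2-T22 measured 15.2, 16.9 and 16.4 FPKM in the controls and 32.0, 18.05 and 21.0 FPKM in the med23 Δli livers, every one of which was above every control (log2 fold change 0.51 ± 0.21, adjusted p = 0.121). Without med23 Δli replicate 1, the highest, the log2 fold change was 0.27 (adjusted p = 0.338). H2-T10 measured 1.38, 0.866 and 1.54 FPKM in the controls and 1.14, 6.85 and 1.30 FPKM in the med23 Δli livers, high in replicate 2 alone. The sum of both copies was 16.6, 17.8 and 17.96 FPKM in the controls and 33.2, 24.9 and 22.3 FPKM in the med23 Δli livers. Taken as 1 gene, it was higher in the latter, with a log2 fold change of 0.60 ± 0.17 and an adjusted p of 0.0401 in limma. Leaving out 1 library at a time, this adjusted p ran from 0.0479 to 0.141 and stayed under 0.05 only without med23 f/f replicate 3. With H2-T9 added to the sum, the log2 fold change was 0.39 and the adjusted p 0.149. H2-T22 and H2-T10 were named after their values were seen, as were the copies H2-L, H2-Q6, H2-Q7 and H2-Q8.

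The genes H2-Q6 to H2-Q9 encode Qa-2, a heavy chain held at the surface by a lipid anchor or released, and H2-Q5 is their close neighbour. H2-Q5, which GENCODE M21 lists as a polymorphic pseudogene (chr17:35394126-35397800, plus strand), measured 11.04, 10.6 and 8.75 FPKM in the controls and 4.70, 4.89 and 6.86 FPKM in the med23 Δli livers. It was lower in all 3 of the latter (log2 fold change -0.89 ± 0.18, adjusted p = 0.0161). H2-Q9 measured 8.70, 7.41 and 6.57 FPKM in the controls and 4.54, 4.10 and 5.51 FPKM in the med23 Δli livers, again with no overlap (log2 fold change -0.67 ± 0.17, adjusted p = 0.0297). Leaving out 1 library at a time, H2-Q5 kept an adjusted p under 0.05 in 4 of 6 fits (0.0120 to 0.0694), also without med23 f/f replicate 2, at 0.0382. H2-Q9 kept it in 2 of 6 (0.0198 to 0.110), those without med23 f/f replicate 3 or med23 Δli replicate 3, and without med23 f/f replicate 2 it stood at -0.68 with an adjusted p of 0.0551. Of all tested members, 5 (H2-K1, H2-Q5, H2-Q9, Tap1 and Tap2) had every med23 Δli library below every control, or 16.1% beside 20.4% of all genes, and 3 (H2-D1, H2-T22 and H2-Q1) had every one above, or 9.68% beside 23.3%.

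Levels of H2-Q6 and H2-Q8 differed widely between livers of the same group, and how reads were divided among the copies was not tested. H2-Q6 measured 9.03 and 14.5 FPKM in med23 f/f replicates 1 and 2, 0.00125 FPKM in replicate 3, and 0.984, 1.11 and 0.00012 FPKM in the med23 Δli livers. H2-Q8 was lowest in med23 f/f replicate 2, at 0.0007 FPKM, and highest in med23 f/f replicate 3 and med23 Δli replicate 3, at 5.13 and 4.48 FPKM, so these 2 copies were high in different livers. H2-Q7 measured 13.9, 26.2 and 6.24 FPKM in the controls and 7.88, 5.56 and 8.26 FPKM in the med23 Δli livers, where the groups overlapped (adjusted p = 0.196). Summed from H2-Q5 to H2-Q9, the level was 43.8, 58.8 and 26.7 FPKM in the controls and 19.8, 17.2 and 25.1 FPKM in the med23 Δli livers. All 3 med23 Δli sums lay below all controls, the closest pair being replicate 3 of each group. The means were 43.1 ± 16.1 and 20.7 ± 4.03 FPKM, and the sum fell by 1.00 on the log2 scale (SE 0.28, adjusted p = 0.0422 in limma); the choice of these copies was made after the values were seen. Leaving out 1 library at a time, the change ran from -1.31 to -0.74 and the adjusted p from 0.00633 to 0.132, and it was under 0.05 only without med23 f/f replicate 3. Without med23 f/f replicate 2 the change was -0.74 with an adjusted p of 0.0899. H2-Q8 and H2-Q9 entered this sum by name, since their likeness to the others was not measured. The sum over genes linked by pairs alike at 90% or more, H2-Bl, H2-D1, H2-K1, H2-Q4, H2-Q5, H2-Q6 and H2-Q7, came mostly from H2-K1 and H2-D1 and did not pass, at 1023 ± 137 FPKM in controls and 927 ± 29.7 FPKM in med23 Δli livers (log2 fold change -0.13, adjusted p = 0.536).

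H2-Q1 (chr17:35320405-35325099, plus strand), a class Ib heavy chain gene of the same cluster, was the member called up, at a low level. It measured 0.376, 0.354 and 0.505 FPKM in the controls and 0.962, 2.02 and 0.904 FPKM in the med23 Δli livers. All med23 Δli values were above all controls, with replicate 2 highest. The means were 0.412 ± 0.0818 and 1.29 ± 0.625 FPKM, a log2 fold change of 1.37 ± 0.34 with an adjusted p of 0.0296. The control mean lies under the 0.5 FPKM filter, so the higher med23 Δli values brought the gene into the test. With no filter, the limma adjusted p of H2-Q1 was 0.0503. Its coding sequence shared 88.5% of aligned bases with H2-Q4 and 86.7% with the far more abundant H2-K1. Without single libraries the log2 fold change ran from 1.02 to 1.56 and the adjusted p from 0.0286 to 0.0999, under 0.05 only when med23 f/f replicate 3 was left out. Without med23 f/f replicate 2 these were 1.29 and 0.0675.

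H2-Q4, H2-M3, H2-Bl, H2-K2 and H2-T24, the other tested class Ib genes, had log2 fold changes between -0.37 and 0.31, with adjusted p from 0.289 to 0.552. Single libraries moved these values, and without 1 at a time H2-Bl ran from -0.55 to -0.10, H2-Q4 from -0.44 to -0.06, H2-M3 from -0.44 to -0.03, H2-K2 from -0.01 to 0.36 and H2-T24 from 0.00 to 0.50. Those nearest 0 came without med23 Δli replicate 3 for H2-Bl, med23 f/f replicate 2 for H2-Q4 and H2-M3, med23 f/f replicate 3 for H2-K2 and med23 Δli replicate 1 for H2-T24. H2-M3 shows formylated peptides of bacteria and mitochondria, and measured 2.67 ± 0.777 FPKM in controls and 2.23 ± 0.449 FPKM in med23 Δli livers. Over the 16 tested class Ib genes the median log2 fold change was -0.26, with 9 below 0. This median includes med23 f/f replicate 2, the highest library for 7 of the 16, or 43.8% beside 22.4% of all genes tested. It was not taken without that library. Of the 13 that were not tested, 6 had values above 0, with means of at most 0.197 FPKM, and these were H2-M1, H2-M2, H2-M5, H2-M9, H2-Q2 and H2-T3. The summed level of all 29, to which H2-Q10 gave most, was 1234 ± 217 FPKM in controls, 1121 FPKM without med23 f/f replicate 2, and 961 ± 133 FPKM in med23 Δli livers.

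**Figure D3:**
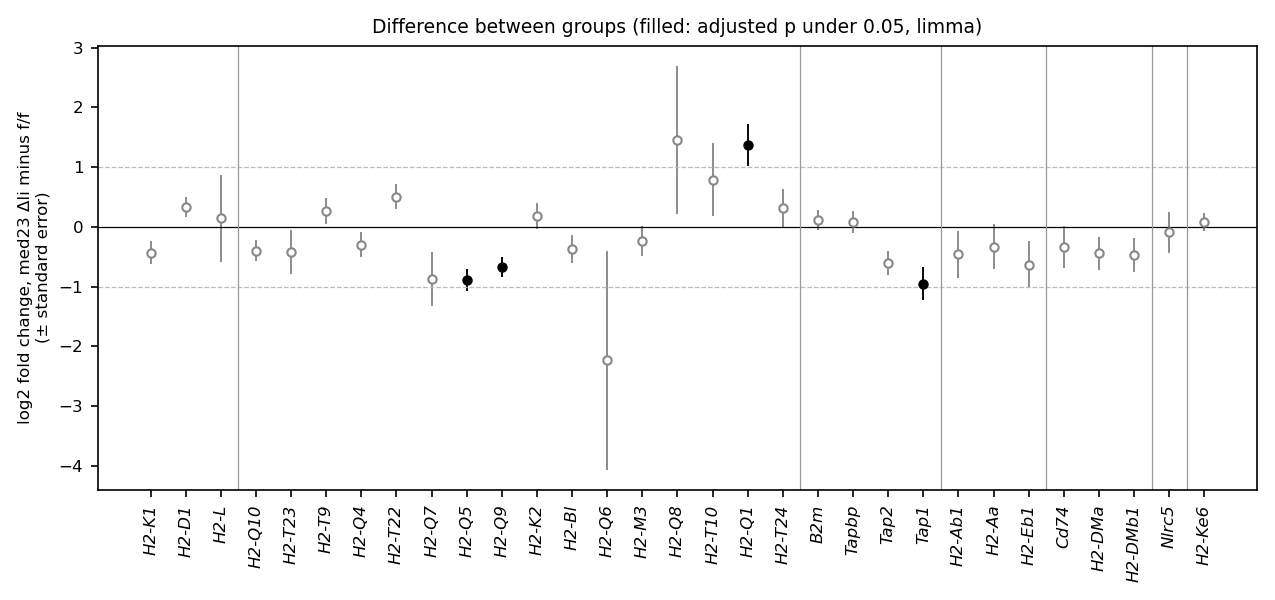
Log2 fold change of each tested member, med23 Δli minus med23 f/f, on the log2(FPKM + 0.1) scale, with its standard error. Filled points have an adjusted p under 0.05 in limma (H2-Q5, H2-Q9, H2-Q1 and Tap1), dashed lines mark changes of 1 and -1, and grey lines part the classes; H2-Q6 and H2-Q8 carry the widest error bars.

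Among the 4 class I assembly genes, only Tap1 passed the test, and it was lower in med23 Δli livers. B2m measured 1038, 709 and 757 FPKM in the controls and 862, 866 and 947 FPKM in the med23 Δli livers, all within the range of the controls (log2 fold change 0.11 ± 0.17, adjusted p = 0.661). Tap1 (chr17:34187553-34197225, plus strand) measured 10.4, 18.2 and 8.65 FPKM in the controls and 6.94, 4.96 and 6.45 FPKM in the med23 Δli livers. The groups did not overlap, and med23 f/f replicate 2 stood well above the other controls. The means were 12.4 ± 5.07 and 6.12 ± 1.03 FPKM, a log2 fold change of -0.95 ± 0.27 with an adjusted p of 0.0446. Without med23 f/f replicate 2 the log2 fold change was -0.64 and the adjusted p 0.0599. Over the 6 fits without single libraries the adjusted p ran from 0.0182 to 0.140 and was under 0.05 only without med23 f/f replicate 3.

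Tap2 measured 18.4, 24.6 and 14.8 FPKM in the controls and 14.2, 11.6 and 11.6 FPKM in the med23 Δli livers. All 3 med23 Δli values were below all controls (log2 fold change -0.60 ± 0.20, adjusted p = 0.0666), so the change did not pass the test. Tapbp measured 35.4, 31.4 and 24.0 FPKM in the controls and 38.0, 27.4 and 30.5 FPKM in the med23 Δli livers. The groups overlapped and their means were close, at 30.3 ± 5.81 and 32.0 ± 5.44 FPKM (log2 fold change 0.08 ± 0.19, adjusted p = 0.776). The summed class I heavy chain level was 2.11, 3.69 and 2.49 times that of B2m in the controls and 2.23, 2.01 and 2.09 times in the med23 Δli livers. Those of med23 Δli lay closer together, around the lowest control (exact two-sided permutation p = 0.2). With 3 libraries against 3, this test cannot give a p under 0.1. On log2(FPKM + 0.1), it gave 0.1 for H2-Q1, H2-Q5, H2-Q9 and Tap1.

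Tap1 lies head to head with Psmb9, a catalytic subunit of the immunoproteasome that is exchanged into the proteasome in immune responses. Psmb9 measured 9.57, 18.8 and 6.40 FPKM in the controls and 6.20, 3.55 and 4.80 FPKM in the med23 Δli livers. It followed the order of Tap1 in the controls, and its groups did not overlap either, by a narrow margin between med23 f/f replicate 3 and med23 Δli replicate 1 (log2 fold change -1.13 ± 0.38, adjusted p = 0.0658). Leaving out 1 library at a time, its change ran from -1.49 without med23 f/f replicate 3, where alone it passed (adjusted p = 0.0179), to -0.72 without med23 f/f replicate 2 (adjusted p = 0.115), and the adjusted p reached 0.188. The GENCODE spans of the 2 genes overlap by 212 bases on opposite strands, and the library kit does not mark strand, so reads from there cannot be assigned to either gene by strand. The stretch between their RefSeq starts, which both genes share as promoter, is printed here with the reverse complement of the Y box letters in capitals, in the plus strand of GRCm38.p6.
Psmb9 to Tap1, chr17:34187331-34187555: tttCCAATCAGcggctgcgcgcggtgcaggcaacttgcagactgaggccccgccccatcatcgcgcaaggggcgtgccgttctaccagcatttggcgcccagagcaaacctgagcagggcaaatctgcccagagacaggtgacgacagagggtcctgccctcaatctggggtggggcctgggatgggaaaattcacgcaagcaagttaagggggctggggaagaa

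Class II chains had lower means in med23 Δli livers, but no chain passed the test and the differences of H2-Aa and H2-Ab1 rested on single livers of either group. H2-Aa, the α chain of I-A, measured 15.8, 33.0 and 14.0 FPKM in the controls and 17.6, 9.96 and 20.9 FPKM in the med23 Δli livers. H2-Ab1, its β chain partner, measured 14.8, 37.9 and 14.4 FPKM in the controls and 15.2, 10.4 and 19.9 FPKM in the med23 Δli livers. In both genes med23 f/f replicate 2 was more than 2 times the other controls, med23 Δli replicate 2 was the lowest library, and the groups overlapped. Their log2 fold changes were -0.33 ± 0.37 (adjusted p = 0.544) and -0.46 ± 0.39 (adjusted p = 0.427), and without med23 f/f replicate 2 they were 0.05 and 0.00. Without med23 Δli replicate 2 they were -0.02 and -0.21. The pair kept close to equal levels in every library, with H2-Aa at between 0.868 and 1.16 times H2-Ab1.

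H2-Eb1, the β chain of I-E, measured 10.2, 22.01 and 10.1 FPKM in the controls and 8.43, 5.32 and 13.4 FPKM in the med23 Δli livers. As for H2-Ab1, med23 f/f replicate 2 was highest and med23 Δli replicate 2 lowest, and the groups overlapped (log2 fold change -0.63 ± 0.39, adjusted p = 0.275). Its α chain gene, listed as H2-Ea-ps, is disrupted in C57BL/6 mice and was at 0 in 5 of the 6 libraries and at 0.115 FPKM in med23 Δli replicate 2. H2-Eb2 reached at most 0.110 FPKM in any library. Cd74 measured 35.2, 95.6 and 38.2 FPKM in the controls and 35.1, 46.8 and 39.2 FPKM in the med23 Δli livers. Med23 f/f replicate 2 was again the single high library and the others lay close together (log2 fold change -0.33 ± 0.36, adjusted p = 0.523). Without it, the log2 fold change was 0.13.

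Cd74 exceeded H2-Ab1 between 2.31 and 2.64 times in 4 of the libraries, by 1.97 times in med23 Δli replicate 3 and by 4.50 times in med23 Δli replicate 2, the library with the lowest class II chain levels. H2-DMa, the α chain of the peptide exchanger, measured 2.22 ± 0.939 FPKM in controls and 1.52 ± 0.121 FPKM in med23 Δli livers (log2 fold change -0.44 ± 0.28, adjusted p = 0.280). H2-DMb1, a β chain, measured 1.95 ± 0.366 and 1.42 ± 0.535 FPKM (-0.47 ± 0.28, adjusted p = 0.261). Leaving out 1 library at a time, it ran from -0.74 to -0.25. Its copy H2-DMb2 was under the filter, at 0.199, 0.196 and 0.117 FPKM in the controls and 0.203, 0.452 and 0.471 FPKM in the med23 Δli livers. The copies thus differed in sign, and their sum had a log2 fold change of -0.26 with an adjusted p of 0.483. H2-Oa and H2-Ob, which form its inhibitor in B cells, stayed at or below 0.219 FPKM in every library. All 6 tested class II genes had log2 fold changes below 0, with a median of -0.45, and in 0 of them did the groups fail to overlap. Without med23 f/f replicate 2, 3 of the 6 (H2-Aa, H2-Ab1 and Cd74) stood at or above 0, H2-Eb1, H2-DMa and H2-DMb1 stood at -0.26, -0.13 and -0.40, and the median was -0.07. No class II gene reached an adjusted p under 0.05 in limma, and 0 did so at an unadjusted p under 0.05. Summed over chains, the class II level was 57.5 ± 30.7 FPKM in controls and 40.5 ± 14.3 FPKM in med23 Δli livers, far below the 2232 ± 369 and 1879 ± 126 FPKM of the class I heavy chains. Without med23 f/f replicate 2 the control means were 39.8 FPKM for the class II chains, which turns the direction, and 2038 FPKM for the class I heavy chains.

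**Figure D4:**
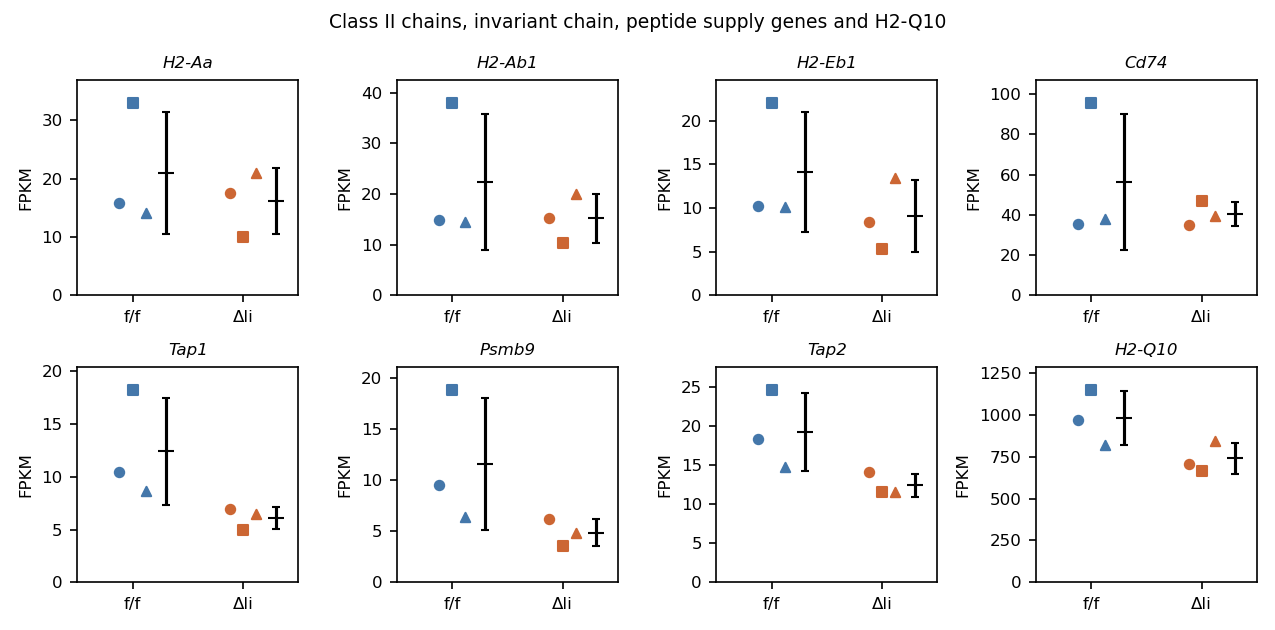
FPKM of 8 genes by group, on axes from 0, with 1 point per liver (circle, square and triangle, replicates 1, 2 and 3) and the mean ± SD (n = 3) beside it. Med23 f/f replicate 2, the blue square, is the highest point in all 8 panels, and the groups do not overlap for Tap1, Tap2 and Psmb9.

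Both transactivators of the MHC genes stood at low levels. Nlrc5, the transactivator of class I genes on chromosome 8, measured 1.76, 1.02 and 0.653 FPKM in the controls and 0.930, 1.16 and 0.908 FPKM in the med23 Δli livers. The med23 Δli values lay inside the range of the controls (log2 fold change -0.09 ± 0.34, adjusted p = 0.871), and med23 f/f replicate 2, highest for most MHC genes, was the middle control. Ciita, the transactivator of class II genes on chromosome 16, measured 0.197, 0.125 and 0.119 FPKM in the controls and 0.263, 0.126 and 0.265 FPKM in the med23 Δli livers. It was below the filter and was not tested, and its lowest med23 Δli value lay among the controls. H2-Ke6 is named for its place in the complex and encodes a steroid and fatty acid dehydrogenase, with 72.8 ± 12.6 and 76.3 ± 4.38 FPKM (adjusted p = 0.735).

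Other genes of the pathway were taken from 8 lists with 54 genes in the table, of which 49 were tested, 5 were higher and 4 lower at an adjusted p under 0.05, or 10.2% and 8.16% beside 11.6% and 9.48% of all genes. Of the 6 genes of the immunoproteasome and its PA28 activator, 5 had log2 fold changes below 0 and none passed. Among 6 genes of peptide trimming and class I loading, 2 were higher. Erap1, the aminopeptidase that trims peptides in the endoplasmic reticulum, rose from 8.59 ± 1.02 to 12.2 ± 0.575 FPKM (log2 fold change 0.50, adjusted p = 0.0364). Canx, the chaperone calnexin, measured 150 ± 40.0 and 235 ± 19.5 FPKM (0.68, adjusted p = 0.04997). Values of both were above every control in all med23 Δli livers. Leaving out 1 library at a time, each passed in 1 of 6 fits, with adjusted p up to 0.146 for Erap1 and 0.148 for Canx.

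Class II peptide processing held 7 genes, with 1 lower and 1 higher. Legumain (Lgmn), an endosomal protease, measured 119, 130 and 104 FPKM in the controls and 50.5, 63.6 and 56.0 FPKM in the med23 Δli livers. All 3 of the latter were well below the controls (log2 fold change -1.05 ± 0.15, adjusted p = 0.00509), it passed in all 6 fits without single libraries, and it was the only gene of the 8 lists called down. Ctsd, the lysosomal protease cathepsin D, rose from 282 ± 7.71 to 457 ± 65.1 FPKM (0.69, adjusted p = 0.0179) and passed in 4 of those 6 fits. Of 11 factors that act at MHC promoters, 2 were lower. They were Nfya and Nfyc, subunits of the NF-Y complex that binds the Y box, with log2 fold changes of -0.77 and -0.48 and adjusted p of 0.00990 and 0.0475, and without single libraries Nfya passed in 5 of 6 fits and Nfyc in 1, with adjusted p up to 0.0558 and 0.156. Ifngr2, a chain of the interferon γ receptor, fell from 20.3 ± 1.62 to 15.0 ± 0.561 FPKM (adjusted p = 0.0445) and was the 1 of 4 tested genes of its list that passed, which held in 1 of 6 fits without single libraries (adjusted p up to 0.154).

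March8, a ubiquitin ligase that removes MHC class II from the surface, rose from 19.4 ± 1.60 to 28.1 ± 1.29 FPKM (log2 fold change 0.54, adjusted p = 0.0232), 1 of 4 tested genes of surface turnover, and passed in 3 of 6 fits without single libraries (adjusted p up to 0.101). Of the 7 tested MHC-like genes outside the complex, 1 passed. It was Procr, the receptor of protein C, which has an MHC-like fold but presents no peptide. Procr measured 7.16, 2.43 and 4.05 FPKM in the controls and 18.4, 21.6 and 17.1 FPKM in the med23 Δli livers. Each med23 Δli value was more than 2 times the highest control (log2 fold change 2.17 ± 0.34, adjusted p = 0.00704), and it passed in all 6 fits without single libraries. No co-stimulation gene passed, of 4 tested.

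Some markers of cells that carry these molecules also differed between the groups. All 7 markers of liver sinusoidal endothelial cells, which express class I and class II, were lower at an adjusted p under 0.05, with a summed level of 92.2 to 131 FPKM in controls and 49.2 to 53.4 FPKM in med23 Δli livers. Of these, 4 passed both thresholds, among them Clec4g, an endothelial lectin, at 51.0, 83.9 and 64.5 FPKM in controls and 27.9, 26.4 and 26.7 FPKM in med23 Δli livers (log2 fold change -1.27, adjusted p = 0.00574). The hyaluronan receptors Lyve1 and Stab2 were next, each at -1.05, then Kdr at -1.03, and without single libraries Lyve1 passed the adjusted p in 3 of 6 fits and the other 3 genes in all 6. Of 12 Kupffer cell and macrophage markers, 9 had log2 fold changes below 0 and 2, C1qa and Mrc1, were lower by the test (in 1 and 3 of 6 fits without single libraries), and the summed level was 306 to 463 FPKM in controls and 329 to 337 FPKM in med23 Δli livers. Of all genes tested, 9.48% were lower at an adjusted p under 0.05, 3.45% were called down and 47.8% had log2 fold changes below 0. The part of either cell type in the MHC values was not tested.

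Defining markers of lymphocytes were near 0. No B cell marker and no T cell or natural killer cell marker passed the filter, and their highest values were 0.602 and 0.598 FPKM. Among 10 dendritic cell markers, 5 were tested and none passed. Of 7 tested monocyte and neutrophil markers none passed, with 5 below 0. Of 7 stellate cell markers, 6 had log2 fold changes below 0 (median -0.45) and 1, Des, was lower by the test. Of 8 hepatocyte markers, 6 were below 0 (median -0.45) and 1, Serpina1a, was lower by the test. These counts stand beside 9.48% of all genes tested that were lower by the test and 47.8% that were below 0. The summed hepatocyte markers ranged from 26450 to 36596 FPKM in controls and from 23219 to 29599 FPKM in med23 Δli livers, so the labelled tissue carried its markers in every library, and their part in the MHC values was not tested. Of the fat markers, 2 were tested and neither passed. Of 5 tested erythroid genes, 2 had log2 fold changes above 0 and 3 below, with a median of -0.13. The α-globin gene Hba-a1 was the 1 called, and called up, at 0.00311 FPKM or less in controls and 0.139 to 17.96 FPKM in med23 Δli livers (adjusted p = 0.0410, under 0.05 in 1 of 6 fits without single libraries). It passed the filter only through its med23 Δli values. The other α-globin gene, Hba-a2, had means of 33.6 FPKM in controls and 30.5 FPKM in med23 Δli livers (limma adjusted p = 0.895).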

How the data were processed

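Whole-liver RNA of 6 mice was sequenced, 3 per group, and groups were taken from the labels. The authors made the libraries with a kit that does not mark strand, checked reads with FastQC, trimmed adapters, aligned to mm10 with TopHat and ran Cuffdiff. Versions, annotation and options are not given in the sources used here. The deposited table holds FPKM per library for 24346 genes, and its columns of group means, fold changes, p-values and calls by the authors were not used. The study's methods state a median depth over its samples, but FPKM carry no counts, so the depth of each library is unknown and the spread between 3 mice is the only error given.

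limma 3.58.1 (R 4.3.3; lmFit, eBayes with trend) was run on log2(FPKM + 0.1) for 11956 genes averaging 0.5 FPKM or more. Fold changes on this scale understate the change of low genes. The fit was tested on simulated data. Values with ± are means and SD, n = 3, except for log2 fold changes, where ± gives the standard error. Genes named with every library's value were H2-K1, H2-D1, the 3 most abundant class Ib genes, the 3 tested class II chains, the 7 members named singly and every member with an adjusted p under 0.05. Pathway genes with an adjusted p under 0.05 were named, at most 3 a list, as were marker genes past both thresholds, at most 3 a list. Kdr, C1qa, Mrc1, Serpina1a, Des and others were chosen after their values were seen. The members and lists were chosen with earlier results of these data known. Identity of copies came from local alignments of GENCODE M21 coding sequences (Biopython 1.88) in place of the planned proteins, which were not used here; the H2-K2 sequence was a transcript. Promoters were the 250 bases before RefSeq starts. Alternatives changed the pseudocount, filter, scaling, variance model, block, summing of copies and the libraries used.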

Additional observations from a re-analysis of the deposited data

How the results depend on the processing

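Counts of members rested on few genes. With H2-Q1 the only member called up, that count was 0 with a pseudocount of 1 FPKM, with no filter, with a filter at a mean of 1 FPKM, and with the replicate number as a block. The count of members higher at an adjusted p under 0.05 was 0 with no filter, with the filter at 1 FPKM and with the block, and 2 with similar copies summed, where the sum of H2-T10 and H2-T22 joined. The count of lower members, 3, was 1 with no filter and 1 with the block, H2-Q5 in both, 2 with similar copies summed, where H2-Q5 entered a sum that did not pass, 2 with closest copies summed, where H2-Q5 and H2-Q9 entered 1 sum that passed beside Tap1, 2 with eBayes without a trend, where Tap1 was lost, and 4 with quantile normalization, where H2-Q10 joined. Same-numbered libraries did not deviate together from their group means (r = -0.02, -0.05 and -0.12 over 11956 genes). No pairing by number was seen, but libraries of different numbers were not compared, so these values cannot settle whether the numbers pair mice. Leaving out 1 library at a time, members called up ran from 0 to 1, called down from 0 to 3, higher from 0 to 1 and lower from 0 to 6. Without med23 f/f replicate 3 the lower members were H2-Q5, H2-Q6, H2-Q7, H2-Q9, Tap1 and Tap2. Lower members numbered 0 without med23 Δli replicate 1 or replicate 2 and 1 without med23 f/f replicate 1 or replicate 2. Without med23 Δli replicate 3, 1 member was called down. The cause of these differences was not tested, beyond the fewer libraries.

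Of 793 values of single named genes under the alternatives, 686 kept direction and side of the threshold, 87 lost it, 5 gained it and 15 turned sign, the latter all in genes that did not pass. These genes, with their log2 fold changes, were the following. Over the fits without 1 library each, H2-L ran from -0.366 to 1.10 (also -0.287 without med23 f/f replicate 1 and -0.118 without med23 Δli replicate 3), H2-K2 from -0.00748 to 0.361, H2-Q8 from -0.0976 to 2.75, H2-T10 from -0.00753 to 1.23, H2-T23 from -0.740 to 0.0240, H2-Aa from -0.564 to 0.0486, H2-Ab1 from -0.693 to 0.000868, Cd74 from -0.592 to 0.127, Tapbp from -0.0743 to 0.206 (-0.0467 without med23 Δli replicate 1) and Nlrc5 from -0.402 to 0.252. The sign of H2-Aa, H2-Ab1, Cd74 and H2-Q8 turned without med23 f/f replicate 2, and that of H2-T10 and H2-T23 without med23 Δli replicate 2. Under quantile normalization B2m was -0.0123 and H2-Ke6 -0.0251, and H2-Q10 passed, at -0.53 with an adjusted p of 0.0375. With 3 mice a group, no counts or depth for single libraries and alike copies, small differences in single MHC genes could not be resolved.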
